A study of Mus musculus with 26 samples.

Results

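The cells described here are mouse primordial germ cell-like cells (PGCLCs) kept in dTAG13 and sampled at day 2 and day 4 of their induction, so the comparison follows cells given the degrader of tagged Tex10 while germ cell fate was induced. Protein was not measured in the data used here. They are 4 of the 26 libraries of the study, 2 at each day, chosen by their labels and not by any measured value. The 10 libraries of the same experiment were used to estimate the spread between replicates, and every gene with a mean of at least 1 over them was tested, which was 16605 of the 53978 genes listed. All 10 came from cells of strain 129Sv/J. The dTAG13 libraries were from PGCLCs treated with 500 nM dTAG13, the control libraries were from PGCLCs treated with DMSO, its solvent, at day 2 and day 4, and 2 libraries were from untreated epiblast-like cells (EpiLCs), the cells from which PGCLCs are induced. The study also holds Tex10 overexpression lines and testes with a conditional knockout of Tex10, which were not used. The labels do not name the tagged Tex10 allele or the number of clones, and nothing in them says that replicates came from separate cultures, so p-values measure only the spread between these libraries, which may be technical.

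The dTAG13 molecule brings proteins that carry a matching tag to an E3 ubiquitin ligase, after which the proteasome breaks them down. The RNA of the tagged gene is not its target. Tex10 is a subunit of a nuclear complex, also called the rixosome, that acts in the maturation of the large ribosomal subunit and has been linked to the silencing of chromatin, and it has been described as a partner of the pluripotency factor Sox2. When EpiLCs are induced to form PGCLCs, a small group of transcription factors that includes Prdm1, Prdm14 and Tfap2c comes on, naive pluripotency genes are used again, and the genes of the formative epiblast, such as the de novo DNA methyltransferases, are shut down.

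Values are CPM (a gene's reads relative to the size of its library) on library sizes scaled by the trimmed mean of M values (TMM-scaled CPM). Fold changes are day 4 against day 2 on the log2(value + 1) scale, where the change of weakly expressed genes comes out too small, and a gene is called, or said to have risen or fallen, at a Benjamini-Hochberg adjusted p under 0.05 in limma over all tested genes. The 4 dTAG13 libraries held between 5055362 and 5854980 reads, and the other 6 between 6119730 and 8564563. Genes above 0 numbered 26078 to 28809 in the dTAG13 libraries and 28687 in DMSO day 4 replicate 2, against 23453 to 23999 in the rest. The 10 highest genes held 7.85% of DMSO day 4 replicate 1 and 5.24% of its replicate 2. The part of these gaps in the results was not tested. In the 10 libraries 3 reads were worth between 0.299 and 0.477, a floor that covers counting error only. Replicates correlated at 0.983 to 0.991 across genes, and the chi-square per gene between replicates was 4.40 for the dTAG13 day 2 pair and 3.64 for the day 4 pair, against 14.9 for the DMSO day 4 pair.

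The RNA of Tex10, read first in every library, does not report the loss of its protein. It stood at 104 and 94 at day 2 and 76.8 and 72.8 at day 4 in dTAG13. The day 4 libraries were both below the day 2 libraries, and the log2 fold change was -0.40 (SE 0.11, limma adjusted p = 0.0249), a call that was lost when any 1 of the 4 libraries was left out. In DMSO it stood at 106 and 113 at day 2 and 109.5 and 105 at day 4, with a log2 fold change of -0.03 (SE 0.11, limma adjusted p = 0.93), in the EpiLCs at 121 and 131, and the difference between the courses was -0.37 (SE 0.15, limma adjusted p = 0.316). The libraries of the arms also stood apart in Xist, the RNA that coats the inactive X chromosome. Xist was at 250.2 and 253 at day 2 and 94.2 and 115 at day 4 in dTAG13, at 5.41 and 5.02 at day 2 and 1.72 and 2.99 at day 4 in DMSO and at 129 and 138 in EpiLCs, so the DMSO libraries lay far below all others at both days. It fell in both courses, with log2 fold changes of -1.27 in dTAG13 and -0.92 in DMSO, and the difference between the courses was -0.35 (SE 0.23, limma adjusted p = 0.587). The labels give the same strain for all 10 libraries but do not say that the arms came from 1 line, so line and treatment cannot be told apart in any difference between dTAG13 and DMSO. Over the 730 tested genes of chromosome 6 the median change in dTAG13 lay 0.09 above that of the other autosomes, whose own offsets ran from -0.02 to 0.04. Of its 83 called genes, 53 were higher (63.9%), against 44.9% of all genes called in dTAG13. Chromosomes 10 and 17 came next, with 58.9% and 58.8% of their called genes higher. The part of Xist or chromosome 6 in single results was not tested, though counts of calls without the genes of chromosome 6 were made. The chromosome is named beside its called genes where they are first described.

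The PGCLC label was checked against its 12 markers. Their summed level was 980 and 938 at day 2 and 1143 and 1048 at day 4, against 1009 and 1006 in EpiLCs and 1543 to 2089 in DMSO. Sox2 alone was 328 to 436 in dTAG13, 392 and 381 in EpiLCs and 452 to 570 in DMSO. The other 11 summed to 610 to 707, to 617 and 626 and to 1091 to 1520, in the same order. At day 4, 1 was called higher (Kit) and 2 lower (Prdm1 and Tcl1). Tfap2c, a specifier of germ cells, stood at 158 and 157 at day 2 and 183 and 204 at day 4, far above the 2.28 and 4.99 of the EpiLCs. Pou5f1 stood at 185 and 199 at day 2 and 195 and 191 at day 4, and Nanog, on chromosome 6, at 159 and 143 at day 2 and 203 and 159 at day 4. Prdm14 was low at 9.48 and 8.29 at day 2 and 13.1 and 7.95 at day 4, and Dppa3 was near the floor at 1.86 and 2.27 at day 2 and 1.32 and 1.11 at day 4, as it also was in DMSO (1.89 and 2.31 at day 2 and 1.07 and 1.10 at day 4). The summed level of 8 mesoderm markers was between 22.9 and 36.4 in dTAG13 against 3.76 to 9.50 in DMSO and 9.63 and 12.5 in EpiLCs. Hand1 alone was 15.7 to 31.6 in dTAG13 and 2.04 to 7.33 in DMSO, and the other 7 summed to 4.82 to 7.19 and 1.72 to 4.68. That of 8 endoderm markers was between 7.30 and 13.5 against 3.27 to 6.01 and 1.65 and 1.88, in the same order. Gata6 alone was 3.61 to 7.48 in dTAG13 and 0.322 to 1.09 in DMSO, and the other 7 overlapped between the arms, at 2.86 to 6.01 and 2.52 to 5.69. That of 5 trophoblast markers was between 9.53 and 15.8 against 1.61 to 4.65 and 2.79 and 3.55. Ascl2 alone was 6.60 to 11.2 in dTAG13 and 0.752 to 1.9 in DMSO, and the other 4 overlapped, at 2.49 to 4.61 and 0.859 to 2.89. That of 6 fibroblast or feeder markers was between 3.3 and 5.8 in dTAG13 against 0.215 to 2.69 in DMSO and 7.60 and 8.97 in EpiLCs. Col1a1 alone was 2.49 to 4.55 in dTAG13 and 0.215 to 1.51 in DMSO, and the other 5 overlapped, at 0.777 to 2.05 and 0 to 1.69. Of 5 neural markers, Nes alone stood at 133 to 225 in dTAG13 against 16.6 to 50.9 in DMSO, while the other 4 summed to between 25.6 and 31.1 in dTAG13 against 58.1 to 107 in DMSO. Of 6 blood and endothelial markers, Pecam1 alone stood at 98.6 to 153 in dTAG13 against 73.8 to 101 in DMSO, and the other 5 summed to between 4.84 and 11.8 in dTAG13 against 1.93 to 3.80 in DMSO. The part of any such cells in the results was not tested. The embryonic globin gene Hbb-bh1 and the fibroblast gene Postn were at 0 in all 4. In bulk RNA, fewer cells of a type and less RNA per cell cannot be told apart.

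Over the 2 days, 1271 genes were called in the dTAG13 cells, 7.65% of those tested, with 571 higher (3.44%) and 700 lower (4.22%). The median change of all tested genes was 0.01. Large changes were mostly decreases: of the 390 called genes with a change of at least 1 on the log2 scale, 105 were higher and 285 lower. Of the 700 genes that fell, 594 ended with a day 4 mean below the EpiLC mean, and of the 571 that rose, 464 ended above it. Genes called for a low or high day 4 value lean to that side. The shares among all tested genes were not counted, so nothing is read from these counts. The number of calls depends on having both replicates. It was 530 without day 2 replicate 1, 530 without day 2 replicate 2, 651 without day 4 replicate 1 and 525 without day 4 replicate 2, where the lone library left at a day is assumed to vary like the other groups.

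The largest changes are given as 24 leading genes, 12 in each direction. Ly6a (Sca-1), a surface protein of progenitor cells from a family of similar genes whose reads may be shared, stood at 3.42 and 4.55 at day 2 and 18.5 and 18 at day 4. Both day 4 libraries were above both day 2 libraries, and the log2 fold change was 1.96 (SE 0.29, limma adjusted p = 0.000151). Dio3, the deiodinase that inactivates thyroid hormone, stood at 4.66 and 3.48 at day 2 and 15.5 and 16.5 at day 4. Its day 4 libraries were also above all others of the experiment, and the log2 fold change was 1.76 (SE 0.29, limma adjusted p = 0.000504). Arrdc4, an alpha-arrestin that restrains glucose uptake, stood at 20.8 and 21.7 at day 2 and 68.5 and 69.4 at day 4. The replicates nearly coincided within each day, and the log2 fold change was 1.65 (SE 0.16, limma adjusted p = 1.76e-06).

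Creb5, a transcription factor of the CREB/ATF family on chromosome 6, stood at 43.2 and 47.1 at day 2 and 129 and 146 at day 4, with a log2 fold change of 1.58 (SE 0.20, limma adjusted p = 3.62e-05). Its EpiLC libraries read 2.92 and 2.44, so the dTAG13 libraries were higher at both days and highest at day 4. Ptgs2, the prostaglandin synthase COX-2, stood at 5.44 and 7.22 at day 2 and 22.6 and 18.3 at day 4, with a log2 fold change of 1.55 (SE 0.30, limma adjusted p = 0.00226), while its DMSO libraries read 0.629 and 0.271 at day 2 and 0.644 and 0.597 at day 4, close to the level of 3 reads. The other increases were Proser2 (1.66), the long noncoding RNA Bvht (1.65), the ganglioside synthase St8sia1 on chromosome 6 (1.63), the laminin chain Lama1 (1.53), the secreted protease Htra1 (1.53), the Cdk5 activator Cdk5r2 (1.5) and Ccdc141 (1.47), each given as a log2 fold change. In all 12 both day 4 libraries were above both day 2 libraries, which the rule for naming them required.

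Among the decreases, Trh, the thyrotropin-releasing hormone precursor on chromosome 6, stood at 46 and 42.8 at day 2 and 8.07 and 3.18 at day 4. The days did not overlap, and the log2 fold change was -2.88 (SE 0.22, limma adjusted p = 8.66e-08). Kif1a, a motor protein of axonal transport, stood at 23.5 and 38.1 at day 2 and 3.08 and 3.34 at day 4, with a log2 fold change of -2.88 (SE 0.30, limma adjusted p = 2.98e-06). Its EpiLC values were 1.14 and 0.886, so that the fall came after a day 2 level above both EpiLC libraries. Lefty1, a secreted antagonist of Nodal, stood at 28 and 21 at day 2 and 4.69 and 1.91 at day 4, with a log2 fold change of -2.63 (SE 0.22, limma adjusted p = 2e-07). Its EpiLC values of 140.1 and 179.6 were higher than every PGCLC library.

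The neurofilament gene Nefl stood at 26 and 27.2 at day 2 and 3.52 and 3.97 at day 4 against 177 and 163 in EpiLCs, with a log2 fold change of -2.54 (SE 0.22, limma adjusted p = 2.98e-07). Fosb, an AP-1 subunit, stood at 19.9 and 11 at day 2 and 1.47 and 2.38 at day 4, with a log2 fold change of -2.45 (SE 0.28, limma adjusted p = 1.12e-05). Sox11, a transcription factor of progenitor cells, stood at 29.7 and 33.7 at day 2 and 5.72 and 6.36 at day 4, with a log2 fold change of -2.21 (SE 0.19, limma adjusted p = 2.01e-07). For all 3 the EpiLC values were the highest of the experiment. Slc16a3, the lactate exporter MCT4, fell by 2.09 on the log2 scale, from 17.9 and 16.6 at day 2 to 4.69 and 2.22 at day 4, and stood at 402 and 453 in EpiLCs. The other decreases were Vrtn (-2.55), Zfp608 (-2.46), Slfn9 (-2.19, from the Schlafen family of similar genes), the B cell transcription factor Ebf1 (-2.09) and Aff3 (-2.04). All 24 leading genes were chosen in these same libraries as the largest called changes with days that did not overlap. That choice favours keeping the call, so the count of tests that follows is no independent check. The 24 calls held in 334 of 334 tests under the 14 alternatives that could be run on them, those that left out a library included.

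**Figure D1:**
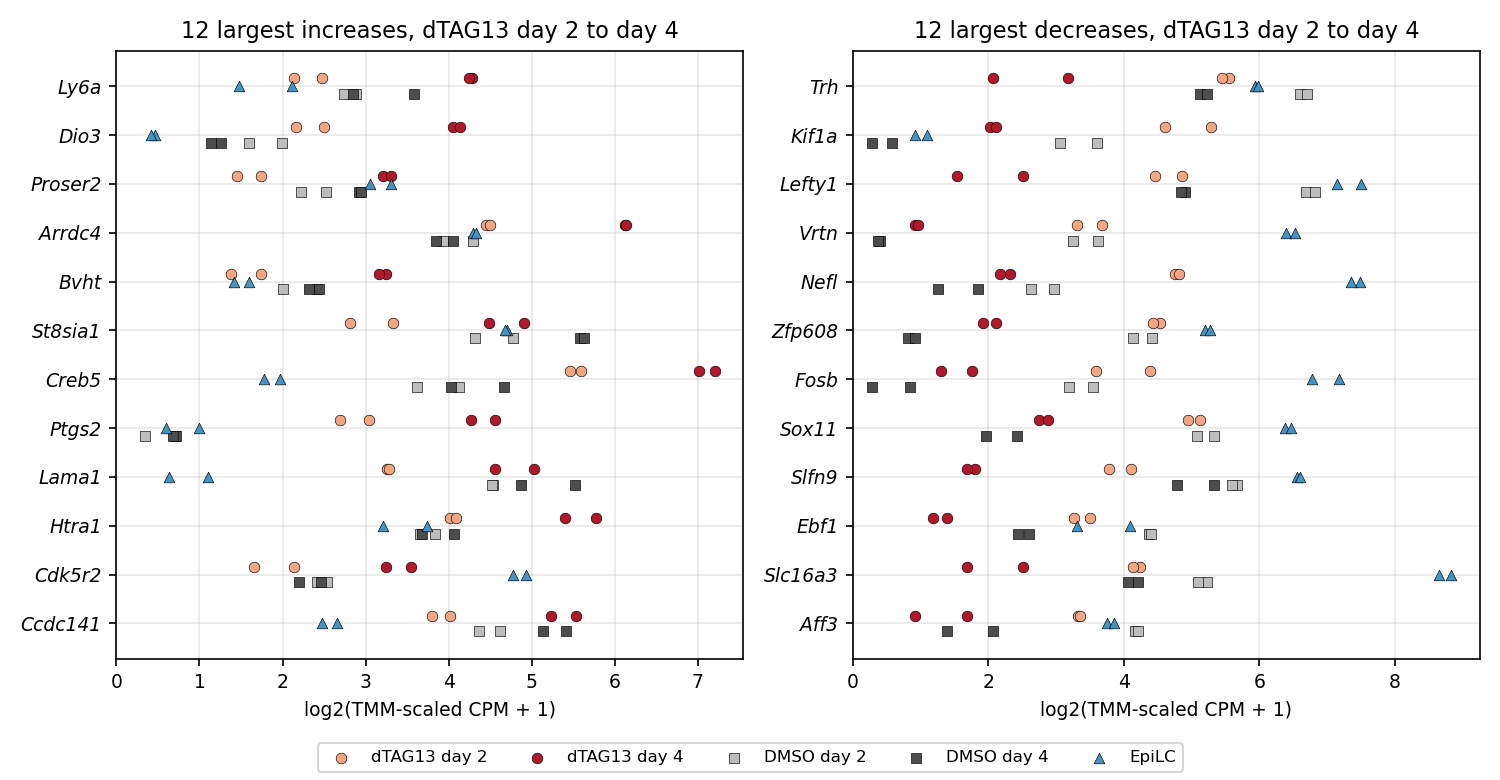
Values of the 12 largest increases (left) and 12 largest decreases (right) from day 2 to day 4 in dTAG13, as log2(TMM-scaled CPM + 1) on the horizontal axis, with 1 point for each of the 10 libraries, coloured by group. In every row the dark red day 4 dTAG13 points lie on 1 side of the light red day 2 points; for Creb5 and Ptgs2 the dTAG13 points lie above all others, and for Nefl, Fosb, Sox11 and Slc16a3 the EpiLC points are the highest.

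The promoters of Dio3 and Arrdc4 are printed because they were among the first 3 increases with an entry in the reference table and their change also differed from that in DMSO, and that of Txnip because it is the close relative of Arrdc4 that rose with it. Txnip was chosen after its values were seen. The sequences are the 250 bases before the gene's start in RefSeq (GRCm38.p6), in the 5′ to 3′ direction of the gene: Dio3 at chr12:110278980-110279229 on the + strand, Arrdc4 at chr7:68749239-68749488 on the - strand and Txnip at chr3:96557707-96557956 on the + strand. Capitals mark TATAAA in Dio3, CACGTG in Arrdc4 and, in Txnip, a paired pattern of CACGNG, 5 bases of any kind and CACGNG again, which was searched after the data were seen.
Dio3: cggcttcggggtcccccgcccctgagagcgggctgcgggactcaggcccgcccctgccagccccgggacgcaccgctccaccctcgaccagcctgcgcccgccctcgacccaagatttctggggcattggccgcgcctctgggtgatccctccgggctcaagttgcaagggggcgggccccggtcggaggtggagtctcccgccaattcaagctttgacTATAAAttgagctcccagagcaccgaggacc
Arrdc4: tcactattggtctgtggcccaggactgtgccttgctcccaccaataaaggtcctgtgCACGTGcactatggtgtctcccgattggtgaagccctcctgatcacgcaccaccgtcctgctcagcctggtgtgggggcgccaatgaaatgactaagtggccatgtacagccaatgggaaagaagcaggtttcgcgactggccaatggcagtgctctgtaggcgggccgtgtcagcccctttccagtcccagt
Txnip: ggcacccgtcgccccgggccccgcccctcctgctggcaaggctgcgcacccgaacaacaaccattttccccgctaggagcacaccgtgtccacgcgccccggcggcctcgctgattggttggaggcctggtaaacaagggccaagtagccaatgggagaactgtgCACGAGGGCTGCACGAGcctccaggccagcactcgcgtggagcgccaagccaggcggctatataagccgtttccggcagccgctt

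Counted back from the gene's start, TATAAA began at -31 in Dio3, CACGTG at -193 in Arrdc4 and the paired pattern at -85 in Txnip. Of 32851 promoter windows of the same length in the table, 12.4% held TATAAA, 6.02% CACGTG and 0.0457% (15 windows) the paired pattern, on either strand. Beside these, TGACGTCA (in 1.55% of windows), TGACTCA with its complement TGAGTCA (4.46%), CCAAT (33.8%) and GGGCGG (32.7%) were searched on both strands in the first 3 increases and first 3 decreases with an entry. None of the 6 held TGACGTCA, TGACTCA or TGAGTCA in this window. The motif CCAAT was found in Dio3, Proser2, Arrdc4 and Vrtn, GGGCGG in Dio3, Proser2 and Trh, and CACGTG in Arrdc4 and Kif1a. Of the 24 leading genes 18 had an entry, and Ly6a and Lefty1 are among those named only. A match of letters is a description and not a site.

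The counts of called list members that follow stand against 3.44% of all tested genes higher and 4.22% lower in dTAG13. In DMSO these shares were 2.44% and 3.08%. Counts at an unadjusted limma p under 0.05 stand against 3560 of the 16605 tested genes in dTAG13, both directions together. For the difference between the courses that number was 2013. Of 20 pluripotency factors tested, 4 rose, 2 fell and 14 were not called, with a median of 0.06. In DMSO 5 rose and 1 fell, with a median of 0.16. Klf4, a naive pluripotency factor, rose from 44.3 and 40.9 at day 2 to 104 and 90.7 at day 4, a log2 fold change of 1.17 (SE 0.13, limma adjusted p = 6.46e-06). Tbx3 rose from 184 and 204 at day 2 to 365 and 332 at day 4, a log2 fold change of 0.84 (SE 0.11, limma adjusted p = 3.25e-05). Klf5 (0.41) and Esrrb were the other increases. The call of Klf5 was lost under quantile normalization and without either day 2 library or day 4 replicate 2. Without day 2 replicate 2, 2 of the 4 increases were kept. The RNA-binding protein Lin28a fell from 229 and 238 at day 2 to 140.2 and 143 at day 4, a log2 fold change of -0.71 (SE 0.10, limma adjusted p = 0.000123), and the threonine dehydrogenase Tdh fell by 0.51, a call lost without day 2 replicate 1 or day 4 replicate 2. Sox2 stood at 358 and 328 at day 2 and 436 and 391 at day 4, with a log2 fold change of 0.27 (SE 0.11, limma adjusted p = 0.165).

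Of 12 formative epiblast genes, 6 fell and none rose (3 at an unadjusted p under 0.05, 0 by edgeR and 0 by DESeq2), with a median of -0.61 against 0.01 for all genes. In DMSO, where 5.52% of all tested genes were called, 7 fell and 1 rose, with a median of -0.87, and no member was called by limma in the difference between the courses, where 1.25% of all genes were (4 at an unadjusted p under 0.05, 0 by edgeR and 0 by DESeq2). Pou3f1 (Oct6), the POU factor of the formative epiblast, stood at 26.1 and 42 at day 2 and 6.01 and 12.7 at day 4 against 249 and 283 in EpiLCs. The days did not overlap, and the log2 fold change was -1.80 (SE 0.28, limma adjusted p = 0.000336). Lef1, a transcription factor of the Wnt pathway, stood at 15.2 and 15.9 at day 2 and 4.11 and 4.77 at day 4, with a log2 fold change of -1.61 (SE 0.26, limma adjusted p = 0.000359). The de novo methyltransferase Dnmt3b stood at 108 and 87.2 at day 2 and 60.7 and 53.4 at day 4 against 628 and 794 in EpiLCs, with a log2 fold change of -0.76 (SE 0.14, limma adjusted p = 0.00193). Dnmt3a (-0.65) and Sall2 (-0.69) also fell. Without 1 of the 4 libraries 4 to 6 of the 6 calls were kept, the fewest without day 2 replicate 1 or day 4 replicate 2, where Dnmt3b and Sall2 were not called. Fgf5 was already near the floor, at 0.466 and 2.27 at day 2 and 0.147 and 0.318 at day 4 against 132 and 155 in EpiLCs.

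Early germ cell genes moved in both directions. Of 16 tested, 2 rose and 3 fell, with a median of -0.04. Prdm1 (Blimp1), the repressor that initiates the germ cell programme, stood at 20.7 and 22.7 at day 2 and 16.4 and 11 at day 4. Its log2 fold change was -0.65 (limma adjusted p = 0.0267), a call lost without day 2 replicate 1, day 2 replicate 2 or day 4 replicate 2 and by edgeR on recovered reads. Kit, the receptor of migrating germ cells, rose from 17.4 and 10.6 at day 2 to 30.1 and 24.5 at day 4, a log2 fold change of 0.95 (SE 0.18, limma adjusted p = 0.00224), and lost the call without day 2 replicate 2 or day 4 replicate 1. The homeobox gene Rhox9, which has close copies in its X-linked cluster, stood at 2.02 and 1.07 at day 2 and 3.96 and 4.61 at day 4 and rose by 1.08, a call lost without day 2 replicate 2 or either day 4 library. Lin28b (-0.71) fell, and so did Tcl1, an activator of Akt (-0.92), whose call was lost by edgeR, with only the compared groups fitted and without either day 2 library or day 4 replicate 2. Of 15 later germ cell and meiotic genes, Dazl rose, from 19.6 and 13.9 at day 2 to 41.6 and 36.2 at day 4, a log2 fold change of 1.19 (SE 0.19, limma adjusted p = 0.000434). The piRNA pathway genes Tdrd12, at 42.7 and 41.3 at day 2 and 18.9 and 20.5 at day 4, and Tdrd1, at 6.99 and 5.22 at day 2 and 1.47 and 2.38 at day 4, fell, with log2 fold changes of -1.06 and -1.29. The call of Tdrd1 was lost by DESeq2 (adjusted p = 0.0512) and without replicate 1 of either day. Ddx4 stood at 6.84 and 8.03 at day 2 and 4.25 and 3.50 at day 4, with a log2 fold change of -0.79 (SE 0.27, limma adjusted p = 0.0729).

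Of the 14 writers and erasers of DNA methylation, 2 rose and 5 fell (14.3% and 35.7%, against 3.44% and 4.22% of all tested genes). Without day 2 replicate 1 or day 4 replicate 2, 1 of the 5 decreases and neither increase were kept. Besides Dnmt3a and Dnmt3b, Uhrf1, which recruits the maintenance methyltransferase, fell from 107 and 108 at day 2 to 80.1 and 78 at day 4, a log2 fold change of -0.44 (SE 0.10, limma adjusted p = 0.0114), while the dioxygenase Tet2 rose from 387 and 354 at day 2 to 473 and 507 at day 4, a log2 fold change of 0.40 (SE 0.11, limma adjusted p = 0.0265). The calls of Uhrf1 and Tet2 were lost with any 1 of the 4 libraries left out. That of Tet2 was also lost under quantile normalization (limma adjusted p = 0.0678). Of 28 imprinted genes, 9 fell and Dio3 alone rose, with a median of -0.43. In DMSO 9 fell, 0 rose (0 at an unadjusted p under 0.05, 0 by edgeR and 0 by DESeq2) and the median was -0.49. Without DMSO day 2 replicate 2, 5 of those 9 were kept. The paternally expressed Peg3 stood at 306 and 329 at day 2 and 123 and 131 at day 4, with a log2 fold change of -1.31 (SE 0.10, limma adjusted p = 1.14e-07), and Peg10 on chromosome 6 at 2671 and 3791 at day 2 and 989 and 1718 at day 4, with a log2 fold change of -1.29 (SE 0.20, limma adjusted p = 0.000352). The days did not overlap for either. The maternally expressed Rian, from the same cluster as Dio3, fell from 396 and 377 at day 2 to 245 and 245 at day 4, a log2 fold change of -0.66 (SE 0.10, limma adjusted p = 0.000151). Meg3 of that cluster (-0.70), Usp29 (-1.41), Plagl1 (-1.01) and Phlda2 (-1.02) fell as well. Without 1 of the 4 libraries 5 or 6 of the 9 decreases were kept, with 5 without day 2 replicate 2, day 4 replicate 1 or day 4 replicate 2. The calls of Meg3, Plagl1 and Phlda2 were each lost without 3 of the 4 libraries, and that of Meg3 by DESeq2 too (adjusted p = 0.0923).

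Of 27 Wnt ligands, receptors, antagonists and targets, 8 fell, 2 rose and 17 were not called, with a median of -0.42. The decreases were 29.6% of the list against 4.22% of all tested genes, and in DMSO 6 fell and 2 rose, with a median of -0.12. Without DMSO day 2 replicate 2, 3 of those 6 were kept. The ligand Wnt8a stood at 20.05 and 15.5 at day 2 and 3.67 and 5.40 at day 4, with a log2 fold change of -1.77 (SE 0.32, limma adjusted p = 0.00122), and the ligand Wnt4 at 18.3 and 21.7 at day 2 and 7.19 and 10.01 at day 4, with a log2 fold change of -1.14 (SE 0.31, limma adjusted p = 0.0246). For both, the days did not overlap. The target Axin2 fell from 11.3 and 13.6 at day 2 to 6.01 and 5.72 at day 4, a log2 fold change of -0.97 (SE 0.21, limma adjusted p = 0.00511), as did Ccnd1 (-0.63), Lef1, Tcf7 (-0.41), Fzd7 (-0.37) and Fzd8 (-0.83). The receptor Fzd5 rose from 118 and 133 at day 2 to 197 and 195 at day 4, a log2 fold change of 0.64 (SE 0.10, limma adjusted p = 0.000336), and the co-receptor Lrp6 on chromosome 6 by 0.37. Without 1 of the 4 libraries 3 or 4 of the 8 decreases were kept, with 3 without day 2 replicate 2 or day 4 replicate 1. The calls of Wnt4, Tcf7, Fzd7, Fzd8 and Lrp6 were lost with any 1 of the 4 left out, that of Axin2 without day 2 replicate 2 and that of Ccnd1 without day 4 replicate 1. That of Fzd8 was also lost by edgeR (adjusted p = 0.0592), by DESeq2 (0.0994), with only the compared groups fitted (0.101) and with the replicate block (0.052). Those of Wnt4 (0.152) and Fzd7 (0.0542) were lost with a pseudocount of 0.1, that of Fzd7 with the replicate block (0.052) and that of Lrp6 under quantile normalization.

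Of 13 Nodal and activin genes, the antagonists Lefty1 and Lefty2 fell and the activin subunit Inhbb rose. Lefty2 stood at 53.2 and 54 at day 2 and 23.6 and 18.8 at day 4, with a log2 fold change of -1.31 (SE 0.12, limma adjusted p = 7.84e-07). Inhbb stood at 27.7 and 24.6 at day 2 and 58.5 and 47.8 at day 4, with a log2 fold change of 0.99 (SE 0.14, limma adjusted p = 8.41e-05), and these 3 calls were kept without any 1 of the 4 libraries. The ligand Nodal itself stood at 145 and 120.3 at day 2 and 123 and 109 at day 4, with a log2 fold change of -0.19 (SE 0.13, limma adjusted p = 0.406). Of 20 FGF ligands, receptors and feedback genes, 4 fell and 1 rose. The ligand Fgf17 stood at 9.79 and 6.42 at day 2 and 1.47 and 2.07 at day 4, with a log2 fold change of -1.70 (SE 0.26, limma adjusted p = 0.000222), and the feedback inhibitor Spry4 at 103 and 99.3 at day 2 and 53.4 and 46.9 at day 4, with a log2 fold change of -1.0 (SE 0.13, limma adjusted p = 4.64e-05). The ligand Fgf15 stood at 2.02 and 4.82 at day 2 and 0 and 0.159 at day 4, at or under 3 reads at day 4. The phosphatase Dusp4 fell by 0.81, and the receptor Fgfr1 rose by 0.45, calls that were lost with any 1 of the 4 libraries left out. Of 16 BMP genes 0 were called by limma in dTAG13 (3 at an unadjusted p under 0.05, 0 by edgeR and 0 by DESeq2), and of 15 Notch genes Hes1 rose (0.75) and Jag1 fell (-0.72). The call of Hes1 was lost without either day 2 library or day 4 replicate 1. That of Jag1 was lost with any 1 of the 4 libraries left out, with a pseudocount of 0.1, by DESeq2 and with the replicate block (adjusted p = 0.051 in both). Of 10 insulin-like growth factor genes 3 fell, among them Igfbp3, which stood at 27.8 and 30.9 at day 2 and 5.43 and 8.90 at day 4, with a log2 fold change of -1.93 (SE 0.24, limma adjusted p = 2.22e-05).

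Among metabolic genes, the glucose-responsive arrestin Txnip stood at 339 and 321 at day 2 and 854 and 813 at day 4. The days did not overlap, and the log2 fold change was 1.33 (SE 0.10, limma adjusted p = 6.34e-08). Of 28 glycolysis and low-oxygen genes, 5 fell and 2 rose, with a median of -0.19 against 0.11 in DMSO. Ldha, which makes lactate, stood at 108 and 118 at day 2 and 49.4 and 53.7 at day 4, with a log2 fold change of -1.12 (SE 0.11, limma adjusted p = 2.14e-06). Pkm (-0.43) and, on chromosome 6, Eno2 (-1.33) also fell. Both increases lie on chromosome 6: Hk2, the first enzyme of glycolysis, stood at 90.5 and 97.3 at day 2 and 149 and 171 at day 4, with a log2 fold change of 0.76 (SE 0.11, limma adjusted p = 0.000189), and the glucose transporter Slc2a3 rose by 0.55. Without day 4 replicate 1, 1 of the 5 decreases was kept. The call of Pkm was lost with any 1 of the 4 libraries left out, that of Eno2 without day 2 replicate 2 or day 4 replicate 1, and that of Slc2a3 without replicate 1 of either day. Of 25 cholesterol synthesis genes 3 fell (12%, against 4.22% of all tested genes), with a median of -0.24, among them Dhcr7, from 33.6 and 33.4 at day 2 to 21.3 and 20.2 at day 4, a log2 fold change of -0.67 (SE 0.14, limma adjusted p = 0.00525). Without day 2 replicate 2 or day 4 replicate 1, 1 of these 3 was kept, and the call of Dhcr7 was lost without day 4 replicate 2. That of Mvd was lost by edgeR and DESeq2 (adjusted p = 0.061 and 0.0744), with only the compared groups fitted and with the replicate block. Of 26 DNA replication genes 3 fell (11.5%, against 4.22% of all tested genes), with a median of -0.25, Mcm6 (-0.49), Cdc6 (-0.56) and Cdt1 (-0.47), and without day 2 replicate 1 none of the 3 was kept. Of 24 mitosis genes 0 were called by limma (4 at an unadjusted p under 0.05, 0 by edgeR and 0 by DESeq2).

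Of 30 genes of the stress response regulated by Atf4, 4 rose and 4 fell, each 13.3% of the list against 3.44% and 4.22% of all tested genes. Without day 2 replicate 1, 1 of the 4 increases and 1 of the 4 decreases were kept, and without day 4 replicate 2, 1 of the 4 decreases. Atf4 stood at 173 and 163 at day 2 and 246 and 245 at day 4, with a log2 fold change of 0.55 (SE 0.10, limma adjusted p = 0.00186). Asns, on chromosome 6, rose by 0.51 and the pseudokinase Trib3 by 0.75. The serine synthesis genes Phgdh (-0.96) and Psat1 (-0.53) and the mitochondrial Pck2 (-0.98) fell. The call of Phgdh was lost with only the compared groups fitted and without day 2 replicate 2 or either day 4 library. That of Psat1 was lost without day 2 replicate 1 or day 4 replicate 2, and that of Pck2 without day 2 replicate 1. Those of Asns and Trib3 were each lost without 3 of the 4 libraries. Of 18 heat shock and unfolded protein genes, 4 fell and 1 rose, and the endoplasmic reticulum chaperone Hspa5 stood at 279.6 and 273 at day 2 and 182 and 187 at day 4, with a log2 fold change of -0.58 (SE 0.10, limma adjusted p = 0.00122). Without day 4 replicate 2, 1 of these 4 decreases was kept, and the increase, that of Hsp90aa1, was lost without it or either day 2 library.

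Ribosomal genes bear on the known role of Tex10. Of 85 cytosolic ribosomal protein genes 0 were called by limma in dTAG13 (11 at an unadjusted p under 0.05, 0 by edgeR and 0 by DESeq2), with a median of -0.10. In DMSO 1 rose, with a median of 0.12 against 0.04 for all tested genes. The difference was called lower for 1, with a median of -0.22 against -0.04. The summed level of the 86 listed in DMSO was 6272 and 5918 at day 2 and 6882 and 5595 at day 4, so the days overlapped there. Of 36 ribosome biogenesis factors 4 were called in dTAG13, against 7.65% of all tested genes, and 3 of them fell and 1 rose. Ncl (nucleolin) stood at 1149 and 1078 at day 2 and 857 and 870.4 at day 4, with a log2 fold change of -0.37 (SE 0.11, limma adjusted p = 0.0389), Pes1 (-0.5) and Gnl3 (-0.38) fell, and Polr1a on chromosome 6, the largest subunit of RNA polymerase I, rose by 0.38. All 4 calls were lost with any 1 of the 4 libraries left out. With all libraries kept, that of Ncl was lost under quantile normalization (limma adjusted p = 0.0597) and that of Polr1a by DESeq2 (adjusted p = 0.0517). Of the 7 genes of the rixosome list Tex10 alone was called. Of 15 genes for Polycomb PRC2 and H3K9 methyltransferases, Aebp2 on chromosome 6 rose, from 263 and 260.5 at day 2 to 409 and 436 at day 4, a log2 fold change of 0.69 (SE 0.10, limma adjusted p = 0.000174), and the other 14 were not called.

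Of 25 cell adhesion and mesenchymal transition genes, 3 rose and 6 fell (12% and 24%, against 3.44% and 4.22% of all tested genes). Their median was -0.24, and 0.047 without day 4 replicate 1, which turned its direction. In DMSO 2 rose and 6 fell, and 3 of those 6 were kept without replicate 2 of either DMSO day. Zeb1, a repressor of epithelial genes, stood at 8.39 and 6.69 at day 2 and 19.7 and 20.02 at day 4, with a log2 fold change of 1.29 (SE 0.19, limma adjusted p = 0.000139). Vim (vimentin) rose from 51.1 and 40.3 at day 2 to 76.8 and 88.7 at day 4, a log2 fold change of 0.85 (SE 0.14, limma adjusted p = 0.000373), and the integrin chain Itga5 by 0.51. The epithelial splicing factor Esrp1 stood at 61.1 and 59.8 at day 2 and 27.3 and 32.9 at day 4, with a log2 fold change of -0.99 (SE 0.12, limma adjusted p = 2.05e-05), and the epithelial surface protein Epcam (-0.46) and the keratin Krt8 (-0.86) fell. Cdh2 (N-cadherin) fell as well, from 4.04 and 5.35 at day 2 to 1.91 and 1.27 at day 4, and Mmp2, a matrix protease, from 9.79 and 7.36 at day 2 to 3.08 and 2.86 at day 4. Without 1 of the 4 libraries 2 to 4 of the 6 decreases were kept, with 2 without day 2 replicate 2 or day 4 replicate 1. The call of Epcam was lost with any 1 of the 4 left out, that of Krt8 without day 2 replicate 2 or day 4 replicate 1, and that of Cdh2 without replicate 2 of either day. Those of Itga5 (without either day 2 library or day 4 replicate 2) and Mmp2 (without day 2 replicate 1 or either day 4 library) were lost too. Of 18 laminins and other matrix genes 4 rose and 2 fell. Sparc, a secreted matrix protein, stood at 184 and 220.5 at day 2 and 283 and 315 at day 4, with a log2 fold change of 0.56 (SE 0.11, limma adjusted p = 0.00334), while Lamb1 fell by 0.61. Without any 1 of the 4 libraries 2 of the 4 increases were kept, and the call of Sparc was lost without day 2 replicate 1 or day 4 replicate 2, and that of Lamb1 without day 2 replicate 2 or day 4 replicate 1. Of 22 collagen genes Col6a5 alone was called, and the call was lost with any 1 of the 4 libraries left out and by DESeq2 (adjusted p = 0.0569).

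Lists that mark other cell types held up to 3 called genes each, with 3 of 6 for neural and 2 of 7 for endoderm genes against 7.65% of all tested genes. Of 9 mesoderm genes Eomes rose, from 5.91 and 7.09 at day 2 to 13.5 and 11.8 at day 4, a log2 fold change of 0.86 (SE 0.20, limma adjusted p = 0.00924), a call lost without replicate 1 of either day. Of 10 Hox genes 0 were called by limma in dTAG13 (4 at an unadjusted p under 0.05, 0 by edgeR and 0 by DESeq2), with a median of 0.43 against 0.01 for all tested genes. In DMSO 1 of the Hox genes rose and 2 fell, with a median of 0.04, and the difference was called higher for 1. Of 6 neural genes Sox1 rose by 1.11, and Nes (-0.55) and Map2 (-1.39) fell. None of these 3 calls was kept without day 2 replicate 2. Of 7 endoderm genes Trh and the lipid carrier Apoe (-0.69, lost without day 2 replicate 2) fell. Of 10 trophoblast genes Krt8 and Peg10 fell. Krt8 stood at 24.3 to 67.2 in the dTAG13 libraries against 5.91 to 9.64 in DMSO and 8.62 and 9.53 in EpiLCs. Peg10 stood at 989 to 3791 against 240 to 1117 and 2504 and 2678, in the same order. Of 5 blood and endothelial genes Pecam1 rose by 0.60 and Runx1 fell by 1.17. The call of Runx1 was lost by DESeq2 (adjusted p = 0.0812), with a pseudocount of 0.1 (0.127) and without day 2 replicate 2 or either day 4 library. Of 11 interferon response genes Bst2 fell by 0.94, a call lost without replicate 1 of either day. Of the 13 genes of the 2-cell embryo list 3 averaged at least 1, and they did so through the dTAG13 day 2 libraries, where they were highest, so no count is read from them. They were Zscan4d, at 6.84 and 7.89 at day 2 and 0.733 and 1.11 at day 4, Zscan4a, at 3.57 and 4.95 at day 2 and 1.17 and 0.477 at day 4, and Usp17le, at 4.66 and 4.15 at day 2 and 0.880 and 0.159 at day 4, members of multicopy families whose reads may be divided between copies. The summed level of all 13 was 25 and 29.2 at day 2 and 4.55 and 3.02 at day 4, against 0.537 to 5.43 in DMSO.

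**Figure D2:**
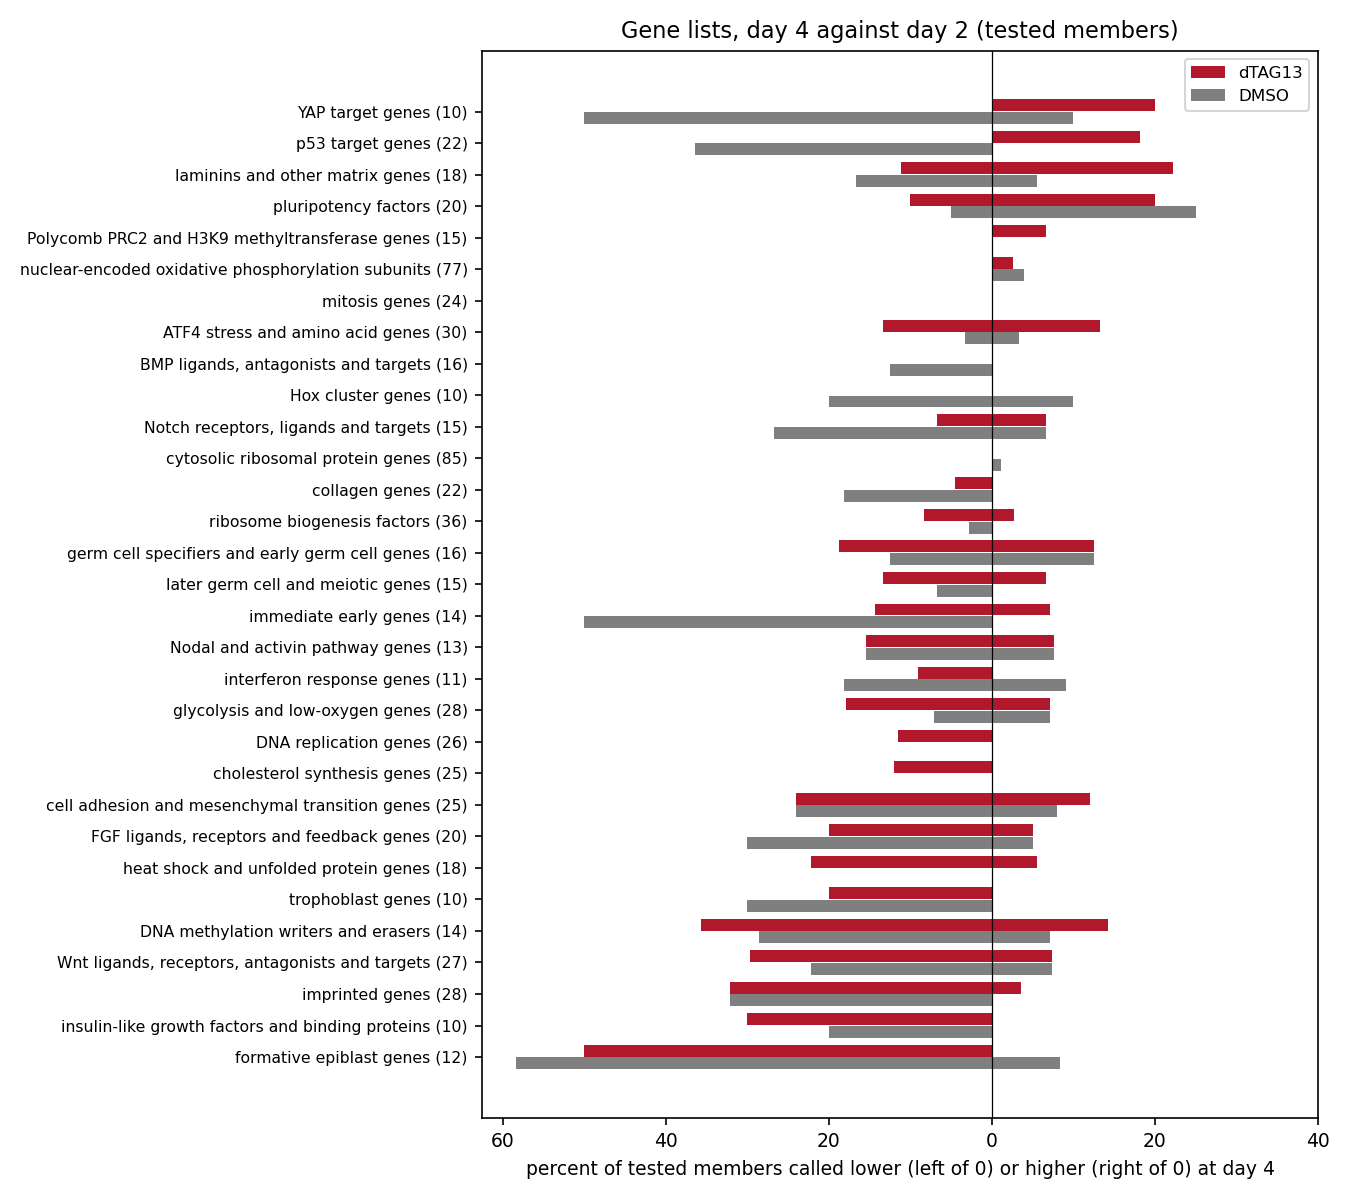
Percent of the tested members of each gene list (with at least 10 tested members, number in brackets) that were called higher (right of 0) or lower (left of 0) at day 4 against day 2, in dTAG13 (red) and DMSO (grey). Formative epiblast genes reach furthest to the left in both arms, with 6 of 12 in dTAG13 and 7 of 12 in DMSO, and the red bars of the YAP and p53 target lists lie right of 0 where the longer grey bars lie left.

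The same days in DMSO show which of these changes the solvent-treated cells shared. In DMSO 916 genes were called, 5.52% of those tested, 405 higher and 511 lower. Both courses have their own libraries, and 335 genes were called in both, 321 of them in the same direction (137 higher and 184 lower). These 321 were 25.3% of the dTAG13 calls and 35.0% of the DMSO calls. Across genes, which are not independent, the changes of the courses correlated at r = 0.40. The log2 fold change of Kif1a was -2.88 in dTAG13 and -2.89 in DMSO. That of Peg3 was -1.31 and -1.32, that of Lin28a -0.71 and -0.77, and that of Zeb1 1.29 and 1.30, in the same order. Kit stood at 50.3 and 51 at day 2 and 128 and 117 at day 4 in DMSO, with every DMSO library above every dTAG13 library, its change there was 1.26, and the difference between the courses was -0.31 (SE 0.26, limma adjusted p = 0.688).

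**Figure D3:**
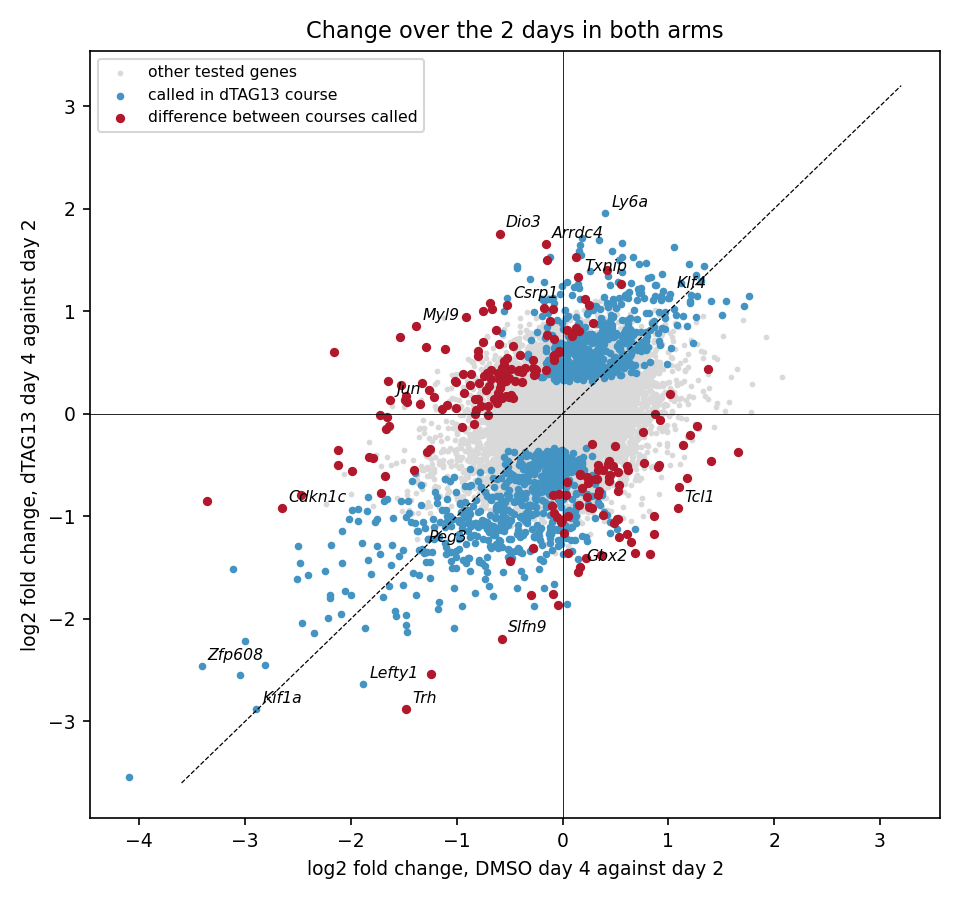
The log2 fold change of each of 16605 genes from day 2 to day 4 in DMSO (horizontal axis) and dTAG13 (vertical axis), with genes called in dTAG13 in blue, genes whose change differed between the courses in red, and all others in grey. Kif1a and Peg3 lie near the dashed line of equal change, Dio3, Arrdc4 and Csrp1 lie above it, and Tcl1, Gbx2 and Slfn9 below it.

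The change over time differed between the arms for 208 genes, 1.25% of those tested, 128 with a higher (0.771%) and 80 with a lower (0.482%) change in dTAG13. Of these, 115 were also called in the dTAG13 course, where 50 rose and 65 fell, and 93 of the 208 were called in that course and not in DMSO. In the DMSO course 109 were also called, and 87 of the 208 were called there and not in dTAG13. The difference is built from both courses, so part of this overlap is fixed in advance. The count of 208 rested on single libraries. It was 49 without dTAG13 day 2 replicate 1, 115 without dTAG13 day 2 replicate 2, 44 without dTAG13 day 4 replicate 2, 101 without DMSO day 2 replicate 1, 95 without DMSO day 2 replicate 2 and 366 without DMSO day 4 replicate 2, and 0 when the variance trend was left out. At an unadjusted p under 0.05 there were 2013, and edgeR and DESeq2 on recovered reads called 248 and 281. The libraries of the arms also differ in Xist, as given above, and line and treatment cannot be told apart in these differences.

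Among named genes that were also called in dTAG13 and averaged at least 5 there, 6 with the largest higher difference are described first. Their levels in dTAG13 rose or fell less than in DMSO. Dio3 stood at 2.01 and 2.99 at day 2 and 1.40 and 1.19 at day 4 in DMSO, below every dTAG13 library, and the difference of its changes was 2.35 (SE 0.41, limma adjusted p = 0.00499). Arrdc4 stood at 14.2 and 18.6 at day 2 and 15.6 and 13.4 at day 4 in DMSO, close to its EpiLC values of 18.6 and 19.2, and the difference was 1.81 (SE 0.23, limma adjusted p = 0.000295). Myl9, a regulatory light chain of myosin, stood at 7.46 and 10.8 at day 2 and 13.6 and 21.3 at day 4 in dTAG13 and at 22.6 and 21.2 at day 2 and 7.30 and 8.26 at day 4 in DMSO. It rose in dTAG13 and fell in DMSO, and the difference was 2.24 (SE 0.34, limma adjusted p = 0.00166). Fgfbp1, a secreted carrier of FGFs, stood at 10.9 and 10.7 at day 2 and 24.1 and 21.1 at day 4 in dTAG13 and at 3.77 and 3.66 at day 2 and 1.61 and 1.99 at day 4 in DMSO, with a difference of 1.75 (SE 0.34, limma adjusted p = 0.0104). The cell cycle inhibitor Cdkn1c (p57), which is imprinted, stood at 30.9 and 36.7 at day 2 and 13.8 and 21.6 at day 4 in dTAG13 and at 29.7 and 38.4 at day 2 and 3.76 and 5.48 at day 4 in DMSO. It fell in both arms, less in dTAG13, with a difference of 1.72 (SE 0.30, limma adjusted p = 0.0051). Cdk5r2 had a difference of 1.64 (SE 0.36, limma adjusted p = 0.0205), a call lost with only the compared groups fitted (0.0579). Left-out libraries ended the difference calls of Fgfbp1 (without dTAG13 day 2 replicate 1 or dTAG13 day 4 replicate 2), Cdkn1c (without the same libraries) and Cdk5r2 (without either DMSO day 2 library or replicate 2 of either dTAG13 day), and ended none of those of Dio3, Arrdc4 and Myl9. Within dTAG13, the rise of Myl9 lost its call without day 2 replicate 1 or day 4 replicate 2, that of Fgfbp1 without any 1 of the 4 libraries, and the fall of Cdkn1c without day 2 replicate 2 or day 4 replicate 1.

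In the 6 genes with the largest lower difference under the same limits, levels fell in dTAG13, and of the 6 Tcl1 was called, and higher, in DMSO. Tcl1 stood at 8.24 and 5.89 at day 2 and 4.25 and 2.38 at day 4 in dTAG13 and at 14.5 and 21.4 at day 2 and 42 and 35.6 at day 4 in DMSO. It fell in dTAG13 and rose in DMSO, and the difference was -2.01 (SE 0.38, limma adjusted p = 0.00828). Gbx2, a homeobox factor that promotes naive pluripotency, stood at 13.5 and 8.29 at day 2 and 2.93 and 3.34 at day 4 in dTAG13 and at 34.3 and 30.9 at day 2 and 30.2 and 44.6 at day 4 in DMSO. All dTAG13 libraries were below all DMSO libraries, and the difference was -1.66 (SE 0.30, limma adjusted p = 0.0056). Ccnb1ip1 (Hei10), needed for meiotic crossing over, stood at 46.2 and 32.9 at day 2 and 14.5 and 13.7 at day 4 in dTAG13 and at 45.4 and 53.5 at day 2 and 56.1 and 59 at day 4 in DMSO, with a difference of -1.63 (SE 0.21, limma adjusted p = 0.000389). Slfn9 stood at 16.2 and 12.7 at day 2 and 2.49 and 2.22 at day 4 in dTAG13 and at 49.9 and 47.2 at day 2 and 39.3 and 26.6 at day 4 in DMSO, with a difference of -1.62 (SE 0.26, limma adjusted p = 0.00255). Rtn1, a reticulon of the endoplasmic reticulum, had a difference of -1.78 (SE 0.36, limma adjusted p = 0.0133), and the guidance cue Ntn1 one of -1.56 (SE 0.33, limma adjusted p = 0.0185). Left-out libraries ended the difference calls of Tcl1, Gbx2, Rtn1 and Ntn1, each without dTAG13 day 2 replicate 1 except Rtn1 (without dTAG13 day 2 replicate 2, dTAG13 day 4 replicate 1 or DMSO day 2 replicate 2), Tcl1 also without DMSO day 2 replicate 1 or dTAG13 day 4 replicate 2, and Ntn1 also without DMSO day 2 replicate 1 or either dTAG13 day 4 library. None ended those of Ccnb1ip1 and Slfn9. Within dTAG13, the fall of Rtn1 lost its call without day 2 replicate 2 or day 4 replicate 1, that of Ntn1 without replicate 1 of either day, and that of Tcl1 as given above.

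**Figure D4:**
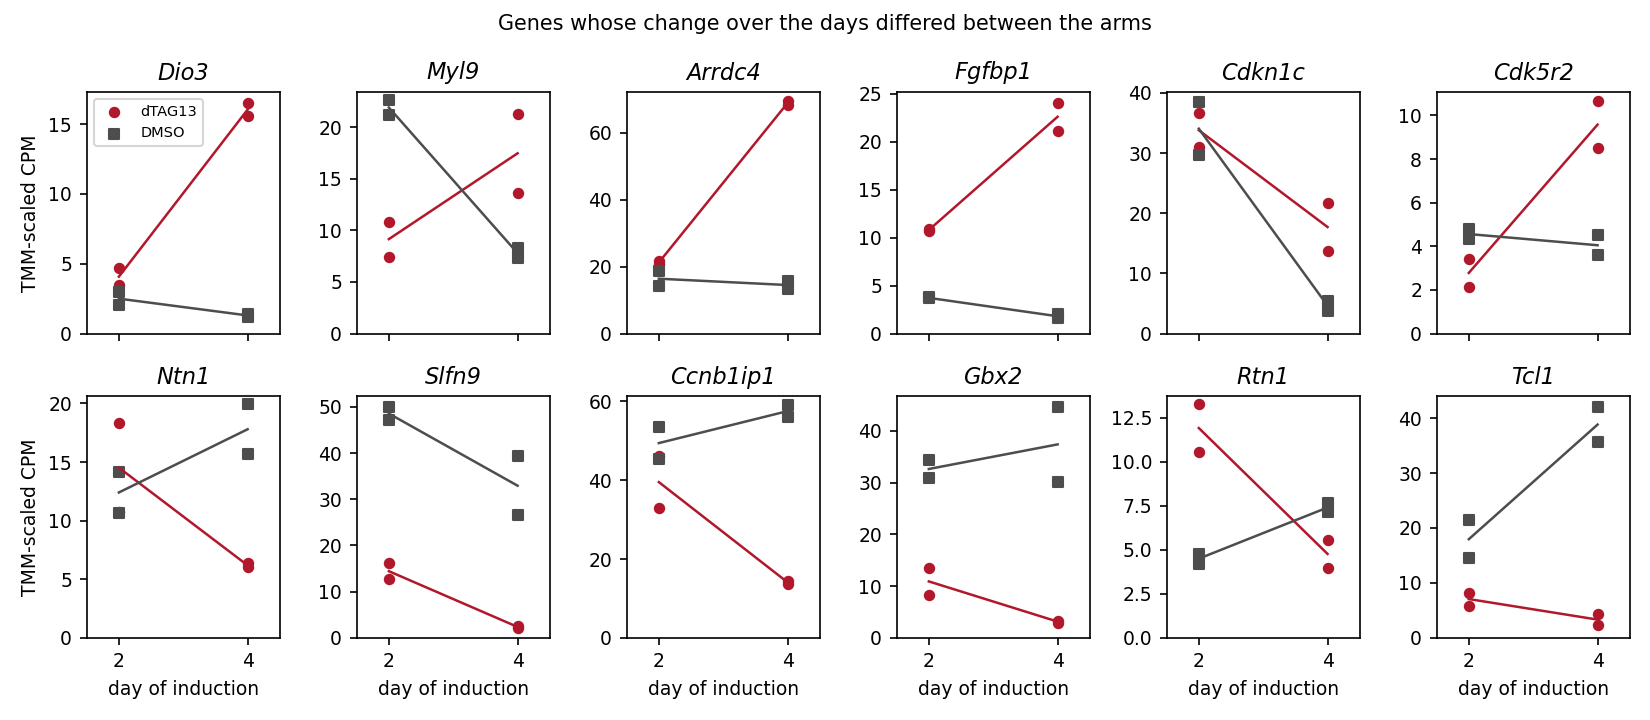
TMM-scaled CPM at day 2 and day 4 of induction for the 12 genes with the largest called difference between the courses that were also called in dTAG13 and averaged at least 5 there (6 in each direction), with 1 point per library, lines through the means, dTAG13 in red circles and DMSO in dark squares. The upper row holds the 6 genes with a higher change in dTAG13, where Dio3, Arrdc4 and Fgfbp1 climb in dTAG13 only, and the lower row the 6 with a lower change, where the Gbx2 and Slfn9 points of dTAG13 lie below those of DMSO at both days.

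The p53 target, YAP target and immediate early lists had a lower median change in DMSO than in dTAG13. So did others, among them 7 contractile and muscle genes, with medians of -0.48 in DMSO and 0.30 in dTAG13. Of these 7, 1 rose in dTAG13, 2 fell in DMSO and 2 had a higher difference. The rise was lost without dTAG13 day 2 replicate 1 or dTAG13 day 4 replicate 2, and both differences were kept without any 1 library. Of 22 p53 target genes, 4 rose and 0 fell in dTAG13, with a median of 0.21. In DMSO 0 rose and 8 fell, with a median of -0.28. Each of these counts of 0 in limma was also 0 at an unadjusted p under 0.05, by edgeR and by DESeq2, as were those of the next 2 lists. Of all tested genes, 3.44% rose in dTAG13, 3.08% fell in DMSO and 0.771% had a higher difference. The difference was called for 7 of the 22, all higher in dTAG13: Mdm2, Trp53inp1, Btg2, Phlda3, Plk2, Perp and Gadd45a (on chromosome 6). That of Gadd45a was lost with a pseudocount of 0.1 (limma adjusted p = 0.0543) and with only the compared groups fitted (0.0701). Mdm2, the ubiquitin ligase for p53, stood at 1196 and 1158 at day 2 and 1244 and 1402 at day 4 in dTAG13 and at 235 and 233 at day 2 and 163 and 165 at day 4 in DMSO. Every dTAG13 library was above every DMSO library, the change in dTAG13 was 0.17 (SE 0.10, limma adjusted p = 0.34), and the difference was 0.68 (SE 0.14, limma adjusted p = 0.0131). Perp, a desmosomal p53 target, stood at 396 and 413 at day 2 and 502 and 558 at day 4 in dTAG13 and at 58.2 and 57.9 at day 2 and 39.95 and 37.8 at day 4 in DMSO, with a difference of 0.95 (SE 0.15, limma adjusted p = 0.0027). The p53 target Cdkn1a (p21) stood at 189.9 and 186 at day 2 and 201 and 187 at day 4 in dTAG13 and at 54.6 and 45.5 at day 2 and 51.7 and 44.2 at day 4 in DMSO, apart between the arms at both days, with a difference of 0.10 (SE 0.17, limma adjusted p = 0.873). Without dTAG13 day 2 replicate 1 or dTAG13 day 4 replicate 2, 1 of the 7 difference calls and none of the 4 increases were kept. Plk2 (adjusted p = 0.0497 in limma for its rise) lost its rise under median-ratio scaling (0.0576), quantile normalization (0.0832), a pseudocount of 0.1 (0.0635) and the replicate block (0.060) too. Under quantile normalization Btg2 (0.0695) and Perp (0.0594) lost theirs as well, so that 1 of the 4 increases, Gadd45a, was kept, and with a pseudocount of 0.1 Btg2 did (0.0512). Without either DMSO day 2 library, 3 of the 8 decreases in DMSO were kept.

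Of 10 YAP target genes, 2 rose and 0 fell in dTAG13, with a median of 0.38. In DMSO 1 rose and 5 fell, with a median of -0.31. The difference was called for 4, all higher in dTAG13, Ccn1, Ccn2, Amotl2 and Ajuba. Ccn1 (Cyr61), a matricellular protein, stood at 98.2 and 131 at day 2 and 175 and 231 at day 4 in dTAG13 and at 14.1 and 14.2 at day 2 and 9.56 and 8.17 at day 4 in DMSO, with a difference of 1.44 (SE 0.24, limma adjusted p = 0.00324). Ccn2 (CTGF) stood at 110.5 and 133 at day 2 and 125 and 149 at day 4 in dTAG13 and at 26.7 and 33.8 at day 2 and 13.7 and 11.1 at day 4 in DMSO, with a difference of 1.39 (SE 0.21, limma adjusted p = 0.00221). Every dTAG13 library was above every DMSO library for both. Without dTAG13 day 4 replicate 2, 1 of the 4 difference calls was kept, and neither increase in dTAG13 was kept without it or without dTAG13 day 2 replicate 1. Without DMSO day 2 replicate 2, 1 of the 5 decreases in DMSO was kept. Of 14 immediate early genes 1 rose and 2 fell in dTAG13, with a median of 0.02 (-0.11 to 0.14 with 1 library left out). In DMSO 0 rose and 7 fell, with a median of -0.58. The rise in dTAG13, that of Jund, was lost under quantile normalization (limma adjusted p = 0.0633) and without either day 2 library or day 4 replicate 2, and the fall of Myc with any 1 of the 4 left out. Without DMSO day 2 replicate 1, 4 of the 7 decreases in DMSO were kept. Fosb fell in both arms (-2.45 in dTAG13 and -2.81 in DMSO). Jun stood at 132 and 157 at day 2 and 151 and 165 at day 4 in dTAG13 and at 34.2 and 39.9 at day 2 and 11 and 11.7 at day 4 in DMSO, with a difference of 1.76 (SE 0.20, limma adjusted p = 7.2e-05). Egr1 stood at 42.7 and 38.8 at day 2 and 25.4 and 29.6 at day 4 in dTAG13 and at 48.9 and 37.3 at day 2 and 7.09 and 13.9 at day 4 in DMSO, with a difference of 1.44 (SE 0.29, limma adjusted p = 0.0131). The difference was called for 5 of the 14, all higher, of which 1 was kept without either dTAG13 day 2 library, dTAG13 day 4 replicate 2 or DMSO day 2 replicate 1.

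Csrp1, a LIM-domain protein of the actin cytoskeleton that was chosen after its values were seen, stood at 127 and 141 at day 2 and 265 and 298 at day 4 in dTAG13 and at 47 and 59.2 at day 2 and 38.3 and 34.6 at day 4 in DMSO. It rose in dTAG13 (log2 fold change 1.06) and fell in DMSO (-0.52), and the difference was 1.59 (SE 0.18, limma adjusted p = 7.2e-05). Txnip stood at 125 and 126 at day 2 and 137 and 141 at day 4 in DMSO, where its change was 0.14 (SE 0.10, limma adjusted p = 0.468), and the difference was 1.19 (SE 0.14, limma adjusted p = 7.2e-05). Tfap2c stood at 104 and 90.9 at day 2 and 59.8 and 51.8 at day 4 in DMSO, where it fell. The difference from its change in dTAG13 was 1.09 (SE 0.26, limma adjusted p = 0.0351). That call was lost without any 1 of the dTAG13 libraries, either DMSO day 2 library or DMSO day 4 replicate 2. It was also lost with a pseudocount of 0.1 (limma adjusted p = 0.101). Tdh rose in DMSO by 0.61, and the difference was -1.12 (SE 0.16, limma adjusted p = 0.00117). Lefty2 stood at 266 and 222 at day 2 and 212 and 188 at day 4 in DMSO, and the difference was -1.03 (SE 0.17, limma adjusted p = 0.00433), lost without dTAG13 day 4 replicate 2 (-0.87, adjusted p = 0.052 in limma).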

How the data were processed

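RNA-seq values of 10 libraries (5 groups of 2) were used. The authors deposited per-sample values, TMM-scaled per the file headers and read here as CPM, since every value was a whole multiple of its library's step (100% within 0.001). The submitters' processing notes name Bowtie2 2.3.4.3, SAMtools 1.9, HTSeq 0.11.2, edgeR 3.26.8 and mm10. Whether counting used strand is not given in the sources used here.

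Genes averaging at least 1 were fitted with limma 3.58.1 (R 4.3.3, variance trend) on log2(value + 1) with 1 mean per group, with Benjamini-Hochberg adjustment over 16605 genes in each of 3 comparisons, and the fit was tested on simulated data. Alternatives were edgeR 4.0.16 and DESeq2 1.42.0 on recovered reads, other scalings, filters and pseudocounts, and left-out libraries.

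Named are Tex10 and Xist, the 12 largest called increases and decreases in dTAG13 (mean of at least 5, days not overlapping), the 6 largest called differences in each direction among genes also called in dTAG13 with a mean of at least 5 there, and up to 4 called members and the defining members of each list. Unnamed gene models were left out, among them Gm29895, with the largest decrease (-3.54). Txnip, Csrp1 and further list members were named after their values were seen. The comparison and the lists were chosen with earlier results of these data known. One matrix gene was taken out of its list after its values were seen and is not reported here.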

Additional observations from a re-analysis of the deposited data

Results flagged for a closer look

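Genes whose change from day 2 to day 4 differed between dTAG13 and DMSO by the test of the difference itself are listed with that difference, as the log2 change in dTAG13 minus that in DMSO. All had an adjusted p under 0.05 in limma over 16605 genes, and 208 genes did in all.

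The difference was higher in dTAG13 for the metabolic regulators Txnip (1.19), Arrdc4 (1.81) and Hk2 (0.67), for the p53 target genes Mdm2 (0.68), Trp53inp1 (0.77), Btg2 (0.79), Phlda3 (0.86), Plk2 (1.02), Perp (0.95) and Gadd45a (0.92), and for the YAP target genes Ccn1 (1.44), Ccn2 (1.39), Amotl2 (0.92) and Ajuba (0.71). It was also higher for the transcription factor genes Jun (1.76), Jund (0.84), Egr1 (1.44), Tfap2c (1.09) and Rhox9 (1.76), for the imprinted genes Dio3 (2.35) and Cdkn1c (1.72), and for the cytoskeletal genes Myl9 (2.24), Csrp1 (1.59) and Nes (0.85). The remaining higher differences among the genes named were those of Htra1 (1.40), Cdk5r2 (1.64), Fgfbp1 (1.75) and Polr1a (0.65).

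The difference was lower in dTAG13 for the signalling genes Lefty2 (-1.03), Spry4 (-0.95), Trh (-1.41), Igfbp2 (-0.70) and Ntn1 (-1.56), for Tcl1 (-2.01), Gbx2 (-1.66) and Ccnb1ip1 (-1.63), which are used in pluripotent or germ cells, and for the metabolic genes Tdh (-1.12) and Pck2 (-1.36). It was lower as well for Nefl (-1.30), Slfn9 (-1.62) and Rtn1 (-1.78). Without dTAG13 day 4 replicate 2 the difference of Trh was -0.85, and without dTAG13 day 2 replicate 1 that of Pck2 was -0.89. Of these 41 differences, edgeR and DESeq2 on recovered reads each kept 39, as did the replicate block. Nefl lost the call under all 3 and without 6 of the 8 libraries. Igfbp2 lost it by edgeR, with the block, under median-ratio scaling and quantile normalization and without 7 of the 8. Egr1 lost it by DESeq2. Hk2, Polr1a and Tfap2c each lost it without 7 of the 8 too. With only the compared groups fitted 35 were kept, and Cdk5r2, Gadd45a, Hk2, Igfbp2, Nefl and Polr1a were lost. With a pseudocount of 0.1, 36 were kept, and Gadd45a, Igfbp2, Nefl, Rhox9 and Tfap2c were lost. With 1 library left out 13 to 39 of the 41 were kept, the fewest without dTAG13 day 4 replicate 2, then 16 without dTAG13 day 2 replicate 1. Between 24 and 25 were kept without dTAG13 day 2 replicate 2 or either DMSO day 2 library, 7 with no filter on low values and none without the variance trend.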

How the results depend on the processing

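Counts of called genes were within 1.5 times of those reported under edgeR, DESeq2, median-ratio scaling, quantile normalization, a pseudocount of 0.1, a mean of at least 5 and, chosen after seeing the data, without the genes of chromosome 6, in all 3 comparisons. The dTAG13 count of 1271 was 832 with no filter, 613 without the variance trend, 390 with a log2 change of at least 1, and 525 to 651 with 1 library left out. The DMSO count of 916 was 341, 445, 355 and 425 to 1104 under the same settings, and 551 when only the 4 libraries compared were fitted. The count of 208 differences was 16 with no filter, 0 without the variance trend (none was called, against 2013 at an unadjusted p under 0.05 in the reported fit), 118 with a log2 difference of at least 1, and 44 to 366 with 1 library left out. Fewer libraries or more tested genes are part of how those settings are built; otherwise the cause was not tested.

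Replicate numbers may not pair samples: same-numbered libraries had deviations that correlated at 0.07 in dTAG13 and 0.09 in DMSO. With the replicate block the counts were 1213, 902 and 201.

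Of 146 named genes called in dTAG13, 146 kept their direction under every alternative. The alternatives refit the same libraries in which these genes were called, which favours keeping the direction. Over the 10 alternatives that kept all libraries, 1281 of 1447 tests kept the call, and 59 genes kept it with left-out libraries too. With 1 library left out, the median of the immediate early list was -0.11 (without day 2 replicate 1 or day 4 replicate 2) to 0.14, and that of the adhesion list -0.34 to 0.047 (without day 4 replicate 1).

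With 5055362 to 5854980 reads in a dTAG13 library, genes near the value of 3 reads carry little precision, and 2 libraries a group limit every test.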
